A study of Mus musculus with 4 samples.

Results

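Zinc finger genes whose mouse symbol is Zfp followed by a number from 600 to 999 were examined in whole embryos lacking Cop1, which encodes an E3 ubiquitin ligase. The members are the 240 probe sets, of 45037 tested, that the platform annotation pairs with 1 gene of such a name, and they represent 133 of 18193 named genes. A further 19 probe sets list such a symbol beside other genes and were not counted as members. The group was chosen from the values of these arrays, with the differences between the genotypes already known. The differences of its members are therefore a description with no test of the group, and nothing is supported with them.

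Expression was measured on Affymetrix arrays in embryos at embryonic day 9.5, lysed directly after dissection, and 5 µg of total RNA was labelled for each array. The Cop1-null group was RNA of 6 Cop1-null embryos, mixed into 1 pool and divided into 2 portions with 1 array each. The control group was RNA of 6 embryos of genotype +/+ or +/-, mixed and divided in the same way, so heterozygotes may be among the controls. The titles of these arrays call the group wild-type, which the sample description does not bear out. The labels give neither the strain nor the form of the null allele. Both arrays of a genotype hold the same RNA pool, so every SD and SE below measures the spread between portions, and the genotype itself has no replicate.

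C2H2 zinc finger proteins bind DNA through repeated fingers, each folded around a zinc ion. Many carry a KRAB domain, which recruits the corepressor TRIM28, and TRIM28 brings the histone methyltransferase SETDB1 and HP1 proteins to chromatin. KRAB zinc finger proteins are known for silencing retroelements in the early embryo, and their genes stand in clusters of closely related copies. A symbol number records the order of naming and not a relation between sequences, so the members also hold zinc finger genes without a KRAB domain. Transcripts of near-identical copies can bind the same probes, and a difference assigned to 1 gene of a cluster is uncertain to that extent.

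Cop1 read 9.67 and 9.77 on the null arrays, against 11.35 and 11.26 on the control arrays (log2 expression), a difference of -1.58. Whether its probe set reads the part of the gene that is missing is not known here. Of 24 measured markers of heart, neural tube, somites and mesoderm, primitive blood, endothelium and yolk sac endoderm, 23 lay above the array median on every array. Some also moved between the pools. The endothelial markers Kdr (0.74) and Pecam1 (0.72) rose. The yolk sac endoderm markers Ttr (-1.53) and Afp (-1.01), the somite marker Tcf15 (-0.64) and the neural marker Nes (-0.64) fell. The other markers of these lists were not called. Those of endothelium were Cdh5 (0.16) and Tek (0.34), and those of yolk sac endoderm Apoa1 (-0.01) and Apob (0.05). In somites and mesoderm Meox1 differed by -0.52, Twist1 by 0.23 and Foxc2 by 0.45. In neural tube Sox2 differed by -0.13, Pax6 by -0.24 and Olig3 by -0.08. The 2 measured markers of placenta and decidua read 3.37 to 3.65. The median of all probe sets was 6.10 and 6.09 on the null arrays and 6.03 and 6.03 on the control arrays. Some control probe sets moved with the genotype. Null minus control was 1.12 to 1.66 for the 3 probe sets of 18S ribosomal RNA and 0.12 to 0.94 for the 3 probe sets of B1 and B2 repeats. The difference between the 3′ and 5′ probe sets of the transferrin receptor was 1.92 and 1.72 in the null pool, against 1.52 and 1.31 in the control pool. The same difference was -0.04 and -0.05 in the null pool, against 0.00 and -0.06 in the control pool, for Gapdh. For actin it was 0.16 and 0.14 in the null pool, against 0.19 and 0.14 in the control pool. For pyruvate carboxylase it was 0.88 and 0.80 in the null pool, against 0.72 and 0.82 in the control pool, so the pools overlapped in these 3 controls. The part of the markers and of these control probe sets in the results below was not tested.

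Falls were more frequent than rises among the high-numbered Zfp probe sets. A probe set was said to have risen or fallen in the null pool when its adjusted p was under 0.05 in a limma fit over all probe sets and its fold was at least 1.5. Of the 240 member probe sets 12 rose (5.00%), beside 6.76% of all probe sets, and 35 fell (14.6%), beside 6.96% of all. The other 193 did not pass. The median difference was -0.15 log2 units, with quartiles at -0.42 and 0.11, beside a median of 0.01 over all probe sets. In bulk RNA of this kind, fewer cells of a type and less RNA per cell cannot be told apart. Rises made up 25.5% of the members' calls and 49.3% of the calls of all probe sets in the deposited values. Centring the arrays on their poly-A spikes lowers every difference by the same amount and gives a median of -0.23 over all probe sets, so both shares drop by construction, to 7.69% of the members' calls and 22.4% of all calls. The median of the spikes was 7.67 and 7.83 on the null arrays and 7.40 and 7.63 on the control arrays. It thus differed between portions of the same pool as well.

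**Figure D1:**
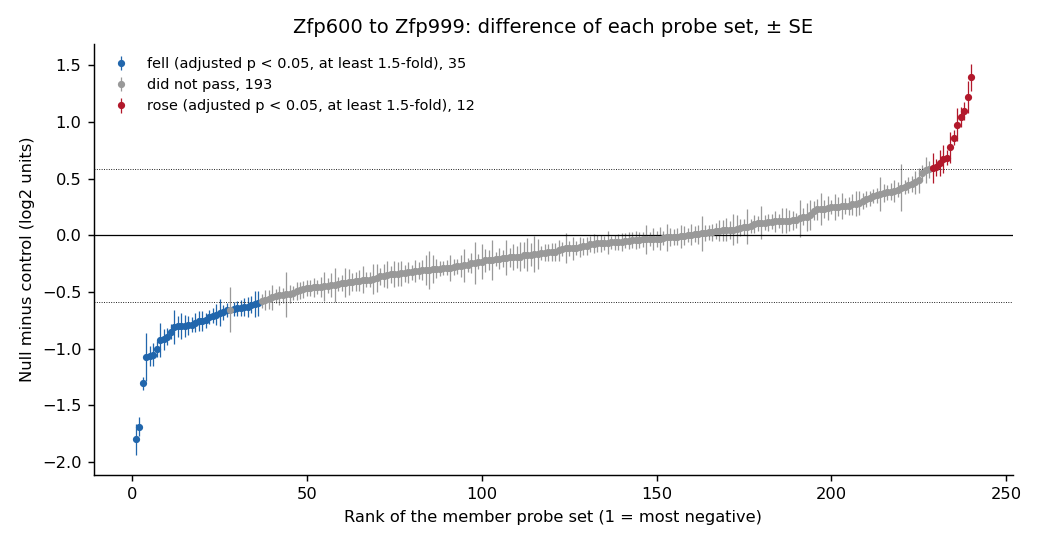
Difference (null minus control, log2 units) of each of the 240 member probe sets with its SE, ordered from the most negative to the most positive, with dotted lines at 1.5-fold. The 35 probe sets that fell reach -1.80 and the 12 that rose reach 1.40.

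The portions of a pool read closely alike for most members. The median absolute difference was 0.29 between the null and control means, 0.11 between the null portions and 0.08 between the control portions. Over all probe sets the same medians were 0.18, 0.09 and 0.09. The pools differed by at least 1.5-fold in 48 of the 240 member probe sets, the null portions in 0 and the control portions in 2. Among all 45037 probe sets these counts were 6266, 143 and 133, so pools further apart than portions were not particular to the members. Both null arrays lay below both control arrays in 119 member probe sets (49.6%), beside 32.7% of all probe sets, and above them in 56 (23.3%), beside 32.6% of all. The arrays of the pools overlapped in the remaining 65.

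With each gene represented by its probe set of highest mean, 4 of the 133 genes rose (3.01%), beside 3.58% of all named genes, and 26 fell (19.5%), beside 8.06% of all. The median of the genes was -0.22, beside -0.02 for all named genes. With the mean over all probe sets of a gene instead, 3 genes rose and 17 fell. The shares of all named genes under that averaging are not given here, so these counts have no background. The part of the naming series below the members, Zfp1 to Zfp599, was set beside them. Of its 335 probe sets 23 rose (6.87%) and 49 fell (14.6%), with a median of -0.09. With each gene represented by its probe set of highest mean, 10 of its 172 genes rose and 25 fell, with a median of -0.17. A difference between the 2 numbered parts was not tested.

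**Figure D2:**
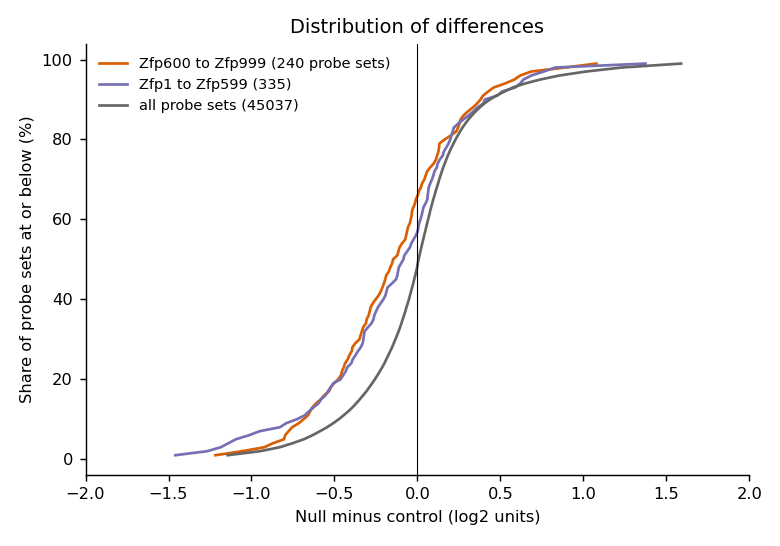
Share of probe sets at or below each difference (null minus control, log2 units), drawn for percentiles 1 to 99. The medians are -0.15 for Zfp600 to Zfp999, -0.09 for Zfp1 to Zfp599 and 0.01 for all probe sets.

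Zfp709 had the most negative difference of the members. It read 4.68 and 4.30 on the null arrays, against 6.26 and 6.32 on the control arrays. The pools were far apart, with means of 4.49 ± 0.27 in the null pool and 6.29 ± 0.04 in the control pool (SD, n = 2 portions), a difference of -1.80 (SE 0.14), or 3.49-fold lower. Its second, dimmer probe set read 3.75 and 3.84 in the null pool, against 4.64 and 4.47 in the control pool, and fell by 0.76. Zfp672 followed with 5.65 and 5.81 on the null arrays and 7.45 and 7.39 on the control arrays. It fell by 1.69 (SE 0.08), and its pools did not overlap.

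Zfp606 moved in both directions. Its brightest probe set read 7.15 and 7.18 on the null arrays, against 8.46 and 8.48 on the control arrays, and fell by 1.31 (SE 0.06). A second read 6.37 and 6.46 in the null pool, against 7.16 and 7.17 in the control pool, and fell by 0.75. The third read 6.23 and 6.36 in the null pool, against 5.15 and 5.23 in the control pool, and rose by 1.10 (SE 0.08). In each of the 3 probe sets the pools were apart by more than the gap between portions. Which exons or ends of the transcript they read is not given by the annotation used here.

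Zfp948 had the most positive difference. It read 8.76 and 8.56 on the null arrays, against 7.14 and 7.38 on the control arrays. The means were 8.66 ± 0.14 in the null pool and 7.26 ± 0.17 in the control pool (SD, n = 2 portions), a difference of 1.40 (SE 0.12), or 2.63-fold higher. Its second probe set read 5.30 and 5.66 in the null pool, against 4.76 and 4.65 in the control pool, and rose by 0.78. The second rise missed the limits without control array 1 (0.83), without control array 2 (0.72) and with spike centring (0.54), while the pools did not overlap in either probe set.

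The promoters of these 3 genes are shown because they carry the most negative, the most divergent and the most positive probe sets. Each window runs from 250 bases before to 50 bases after a transcription start in RefSeq, on assembly GRCm38.p6, and all 3 lie on the plus strand, at chr8:71881818-71882117 (Zfp709), chr7:12478055-12478354 (Zfp606) and chr17:21566728-21567027 (Zfp948). Capitals mark matches, on either strand, to 6 short motifs: GGGCGG (GC box), CCGGAAG (ETS core), TGANTCA (AP-1), TGACGTCA (cAMP response element), ACGTG (core of the hypoxia response element) and CCAAT.
Zfp709: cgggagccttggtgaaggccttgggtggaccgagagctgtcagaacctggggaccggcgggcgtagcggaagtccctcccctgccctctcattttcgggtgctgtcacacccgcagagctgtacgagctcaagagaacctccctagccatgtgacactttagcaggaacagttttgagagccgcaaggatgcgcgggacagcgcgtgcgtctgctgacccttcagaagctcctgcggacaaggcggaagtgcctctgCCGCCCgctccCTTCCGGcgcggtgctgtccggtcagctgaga
Zfp606: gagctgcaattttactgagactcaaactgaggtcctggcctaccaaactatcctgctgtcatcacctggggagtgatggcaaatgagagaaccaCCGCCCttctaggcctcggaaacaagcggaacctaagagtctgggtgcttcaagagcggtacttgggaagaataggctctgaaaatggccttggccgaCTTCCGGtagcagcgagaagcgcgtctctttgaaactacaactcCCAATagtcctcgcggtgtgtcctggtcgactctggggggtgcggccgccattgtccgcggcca
Zfp948: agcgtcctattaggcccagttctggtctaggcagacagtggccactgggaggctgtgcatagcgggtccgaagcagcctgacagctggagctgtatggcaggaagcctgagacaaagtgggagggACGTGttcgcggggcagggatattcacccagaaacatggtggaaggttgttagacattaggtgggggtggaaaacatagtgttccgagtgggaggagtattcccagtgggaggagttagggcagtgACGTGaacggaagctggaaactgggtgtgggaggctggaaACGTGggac
The windows of Zfp709 and Zfp606 each held 1 GC box and 1 ETS core, that of Zfp606 also 1 CCAAT, and that of Zfp948 held 3 matches to ACGTG and none to the other motifs. A match is a run of letters and no evidence of binding.

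RefSeq promoter windows were found for 117 of the 133 genes, 144 windows in all, and were searched on both strands, with matches to different motifs counted separately even where they share bases. CCAAT stood in 53.5% of the members' windows, beside 37.4% of all 32851 windows and 36.6% of those of Zfp1 to Zfp599. GGGCGG stood in 45.8%, beside 35.7% of all and 48.2% in Zfp1 to Zfp599. CCGGAAG stood in 15.3%, beside 8.86% of all and 25% in Zfp1 to Zfp599. TGANTCA, the site of JUN and FOS proteins, stood in 5.56%, beside 7.81% of all and 3.05% in Zfp1 to Zfp599. TGACGTCA stood in 1.39%, beside 1.79% of all and 4.88% in Zfp1 to Zfp599. ACGTG stood in 18.8%, beside 19.6% of all and 23.2% in Zfp1 to Zfp599. The median number of CpG dinucleotides per window was 13 in the members, 16 in Zfp1 to Zfp599 and 7 in all windows. It was 19 in the 30 windows of 23 genes that fell and 9 in the 5 windows of 4 genes that rose.

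After Zfp709, Zfp672 and Zfp606, the next falls were near 2-fold. Zfp963 read 5.52 and 6.10 on the null arrays, against 6.76 and 7.01 on the control arrays, a fall of 1.08, and its portions were the furthest apart of the genes named so far. It missed the limits without control array 1 (-1.20) and without control array 2 (-0.95). Zfp658 read 5.59 and 5.78 in the null pool, against 6.73 and 6.78 in the control pool, and fell by 1.07. Zfp697 read 6.66 and 6.86 in the null pool, against 7.69 and 7.66 in the control pool, and fell by 0.92. Both were measured with close portions and kept their call without any 1 array. The other probe set of Zfp697 differed by -0.26 and was not called. Zfp959 read 5.67 and 5.91 in the null pool, against 6.53 and 6.90 in the control pool, and fell by 0.92, but missed the limits without null array 1 (-0.81). Zfp944 fell by 0.89 on a probe set reading 5.73 and 5.68 in the null pool, against 6.53 and 6.67 in the control pool, while its brightest probe set differed by 0.05 with overlapping pools.

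The other rises lay mostly on probe sets that were not the brightest of their gene. The same held for all named genes, with 1487 rises on such probe sets and 652 on the brightest. Zfp942 rose by 1.22 on a dim probe set reading 4.97 and 4.84 in the null pool, against 3.49 and 3.88 in the control pool, and its other 2 probe sets differed by 0.06 and -0.06. Zfp871 rose by 1.04 on a probe set reading 8.74 and 8.79 in the null pool, against 7.63 and 7.81 in the control pool. Its brightest probe set did not follow, with 10.29 and 10.18 in the null pool, against 10.25 and 10.21 in the control pool, so the pools overlapped there. The remaining probe set of Zfp871 differed by 0.55 and was not called. Zfp638, whose product takes part in adipocyte differentiation, rose by 0.98 on 1 of 4 probe sets, reading 6.22 and 5.83 in the null pool, against 5.12 and 4.97 in the control pool. The others differed by -0.33, -0.05 and 0.40, and the rise missed the limits without control array 2 (0.90).

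Of the 4 genes that rose on their brightest probe set, Zfp948 was described above. Zfp692, whose human counterpart represses genes of glucose synthesis, read 8.94 and 8.999 on the null arrays, against 8.15 and 8.07 on the control arrays, and rose by 0.86. Zfp949 read 7.10 and 7.13 in the null pool, against 6.47 and 6.39 in the control pool, and rose by 0.69. In both the portions were close and the pools did not overlap. The other probe set of Zfp949 differed by 0.13 and was not called. Zfp939 read 7.05 and 7.32 in the null pool, against 6.61 and 6.41 in the control pool, and rose by 0.68. It missed the limits without control array 1 (0.77), control array 2 (0.58) or null array 2 (0.54). With spike centring neither Zfp949 (0.45) nor Zfp939 (0.44) passed.

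**Figure D3:**
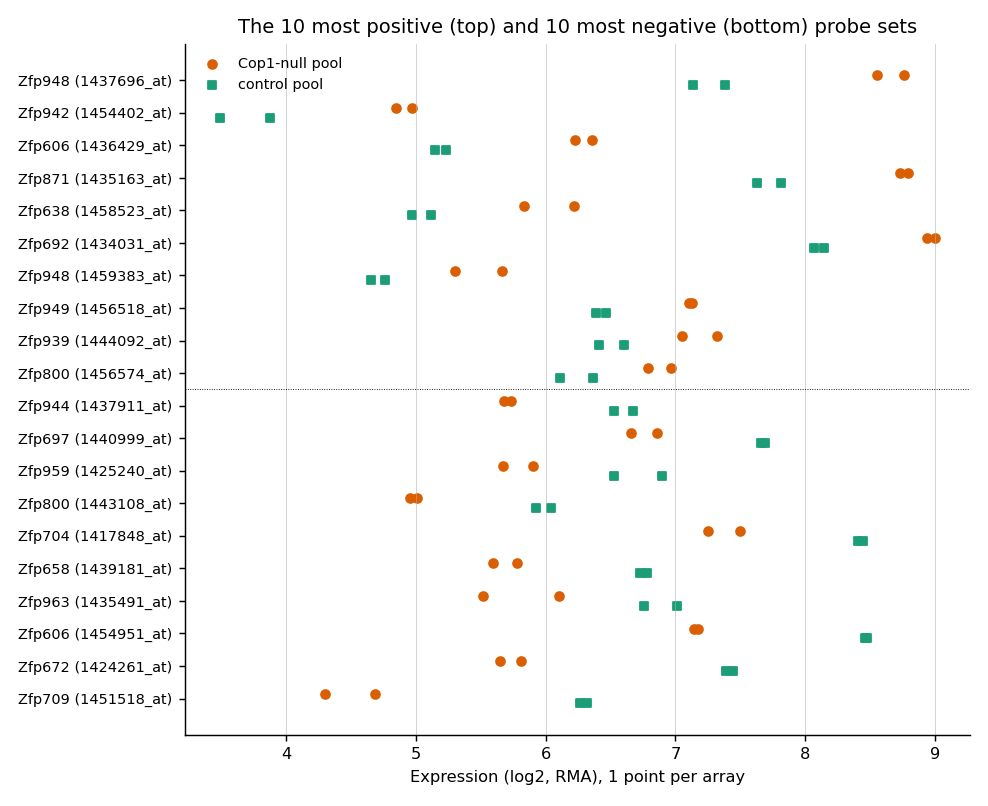
Expression (log2) on each array for the 10 member probe sets with the most positive and the 10 with the most negative difference, with 1 point per array and the null arrays drawn above the control arrays. In all 20 probe sets the null and control points do not overlap, which follows largely from picking them by their difference.

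Probe sets of 1 gene often differed from each other. Of the 133 genes 64 had several probe sets, up to 7 and 171 in all. The signs were mixed in 26 of these genes, all negative in 28 and all positive in 10. The range between a gene's probe sets had a median of 0.27 log2 units and reached 2.41 in Zfp606. The brightest probe set lay below the mean of the others in 38 of the 64 genes. Signs, ranges and this order are not given here for all genes with several probe sets, so they have no background. Over the 107 member probe sets that were not the brightest of their gene, 8 rose (7.48%) and 9 fell (8.41%), near the 8.88% and 8.15% of all such probe sets of named genes, and the median was -0.03, beside 0.00 for all such probe sets.

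Besides Zfp606, Zfp800 had probe sets called in opposite directions. One read 5.01 and 4.96 on the null arrays, against 6.04 and 5.93 on the control arrays, and fell by 1.00. Another read 6.97 and 6.79 in the null pool, against 6.11 and 6.36 in the control pool, and rose by 0.64. Its brightest probe set differed by 0.58 and was not called. The rise missed the limits without control array 1 (0.52), null array 1 (0.55) or null array 2 (0.73), and with spike centring (0.41). Zfp787, named after its values were seen, rose on 2 of 6 probe sets, by 0.60 each, while its brightest differed by -0.29 without a call. Both of its rises missed the limits without null array 2 (0.41 and 0.53) and with spike centring (0.36 and 0.37). In 4 genes at least 2 probe sets fell and none rose, and in 2 genes at least 2 rose and none fell. The same counts over all genes with several probe sets are not given here.

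**Figure D4:**
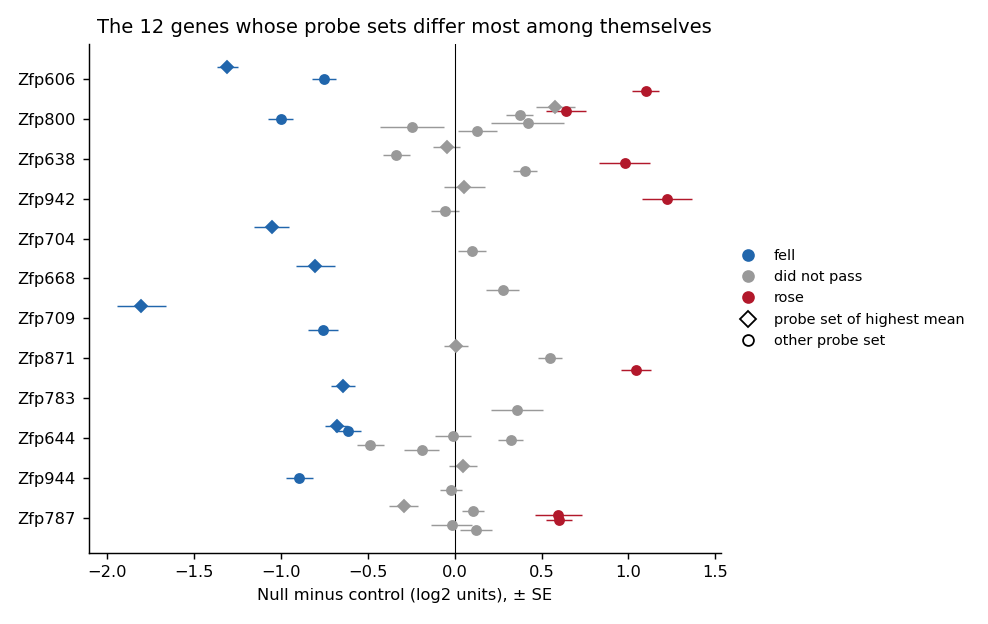
Difference (null minus control, log2 units, with SE) of every probe set of the 12 member genes whose probe sets lie furthest apart, with diamonds for the probe set of highest mean. Zfp606 spans 2.41 log2 units and has calls on both sides of 0, as has Zfp800.

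Members with a described function were taken as a list of 21 genes, of which 19 were measured by 44 probe sets. Among these probe sets 1 rose, that of Zfp638, and 9 fell, in 6 genes, which is 2.27% and 20.5% beside 6.76% and 6.96% of all probe sets. Zfp609 had no probe set of its own in the annotation, and Zfp706 shared its probe sets with another gene.

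Zfp809 binds the primer binding site of retroviruses and recruits TRIM28 to silence them. It read 6.98 and 6.69 on the null arrays, against 7.58 and 7.46 on the control arrays, and fell by 0.68. The pools did not overlap, but the call was lost without control array 1 (-0.62), control array 2 (-0.75) or null array 2 (-0.54). Zfp932, which silences endogenous retroviruses as well, read 8.25 and 8.19 in the null pool, against 8.53 and 8.64 in the control pool. Its difference of -0.36 was not called, although the pools did not overlap. Zfp819, a gene of pluripotent cells, differed by -0.17 with overlapping pools.

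Zfp704 read 7.26 and 7.50 on the null arrays, against 8.41 and 8.45 on the control arrays, and fell by 1.05. Its other probe set differed by 0.10 with overlapping pools. Zfp644, whose human counterpart works with WIZ in directing the methyltransferases G9a and GLP, fell on 2 of 6 probe sets. The brightest read 9.20 and 9.28 in the null pool, against 9.94 and 9.89 in the control pool, and fell by 0.68. The second fell by 0.61 and missed the limits without null array 2 (-0.55), and the other 4 differed by -0.49 to 0.32. Zfp618, a partner of the hydroxymethylcytosine reader UHRF2, fell by 0.66 on its brightest probe set, which read 8.89 and 8.84 in the null pool, against 9.52 and 9.53 in the control pool. Its second fall, of 0.60, missed the limits without control array 1 (-0.46), null array 1 (-0.59) or null array 2 (-0.61).

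Zfp827, whose human counterpart recruits the NuRD complex to telomeres, fell on both probe sets. They differed by -0.80 and -0.70, and the brighter read 6.58 and 6.76 in the null pool, against 7.39 and 7.55 in the control pool. Zfp668, whose human counterpart is a candidate breast tumour suppressor, read 7.11 and 6.82 in the null pool, against 7.79 and 7.74 in the control pool. It fell by 0.80, missed the limits without control array 1 (-0.77) or control array 2 (-0.83), and its dimmer probe set differed by 0.28.

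Most other genes of the list were not called on any probe set. Zfp703, whose human counterpart is an oncogene of breast cancer, read 9.76 and 9.67 on the null arrays, against 9.62 and 9.56 on the control arrays, a difference of 0.12. Zfp711, an X-linked partner of the demethylase PHF8, read 9.22 and 9.18 in the null pool, against 9.06 and 9.09 in the control pool, a difference of 0.13. Zfp830, needed for survival of the early embryo, differed by 0.13 on its brightest probe set. Zfp608 (-0.27), Zfp639 (0.35), Zfp687 (0.16), Zfp740 (-0.03), Zfp750 (-0.16) and Zfp768 (-0.06) were also not called. A missing call does not show that a level was the same in both pools.

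Among the 5 member genes of highest level, Zfp622, whose human counterpart acts in the maturation of the large ribosomal subunit, read 11.19 and 11.20 on the null arrays, against 11.28 and 11.18 on the control arrays. The pools overlapped, with a difference of -0.04. Zfp664 read 9.90 and 9.94 in the null pool, against 10.51 and 10.49 in the control pool. Its difference of -0.58 fell short of the fold limit and was not called. Zfp647 read 9.54 and 9.56 in the null pool, against 10.09 and 10.28 in the control pool, and fell by 0.63, a call lost without control array 2 (-0.54). The other 2 were Zfp871 and Zfp638, whose brightest probe sets differed by 0.01 and -0.05. Levels of different probe sets are not compared beyond this order of signal.

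The remaining falls, named after their values were seen, lay between 0.61 and 0.85 on the log2 scale. Zfp850 fell by 0.85, Zfp612 by 0.81, Zfp961 and Zfp810 by 0.80 each and Zfp760 by 0.79. Smaller falls were those of Zfp667, Zfp748, Zfp770, Zfp983, Zfp629, Zfp617, Zfp783, Zfp689 and Zfp746. Zfp617 and Zfp689 fell on a probe set that was not their brightest, and their brightest differed by -0.49 and -0.10 without a call. The other probe sets of Zfp783 and Zfp961 differed by 0.36 and 0.05. Those of Zfp612, Zfp629, Zfp770 and Zfp983 were negative but not called. Zfp746, also called PARIS, is a parkin substrate that represses the gene of PGC-1α. It read 7.87 and 7.79 on the null arrays, against 8.57 and 8.29 on the control arrays, and its fall of 0.61 missed the limits without control array 1 (-0.47), null array 1 (-0.65) or null array 2 (-0.57). Zfp612 did so without control array 1 (-0.75) or control array 2 (-0.87), and Zfp689 without null array 2 (-0.57). Zfp617 missed them with another quantile normalization (-0.58). Of the 35 falls 25 and of the 12 rises 6 passed in each of the 4 fits that left out 1 array. All 47 kept their direction in those fits by construction, since their null and control arrays did not overlap. How many calls of all probe sets passed in each of those fits is not given here, so these counts have no background.

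All probe sets were divided by level into 3 parts of equal size. Among members in the lowest part, below 4.97, 1 of 47 rose and 1 fell (2.13% each), near the 2.32% and 1.36% of all probe sets of that level, with a median of -0.06. In the middle part 8 of 119 rose (6.72%) and 19 fell (16.0%), beside 10.7% and 8.89% of all probe sets of that level. The median there was -0.20, beside 0.03 for all. In the highest part, above 7.38, 3 of 74 rose (4.05%) and 15 fell (20.3%), beside 7.21% and 10.6% of all. The median there was -0.24, beside -0.08 for all. Falls thus became more frequent with level among all probe sets as well. Pearson's r between level and difference was -0.11 over the 240 member probe sets and -0.08 over all probe sets, points that share the same 4 arrays.

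**Figure D5:**
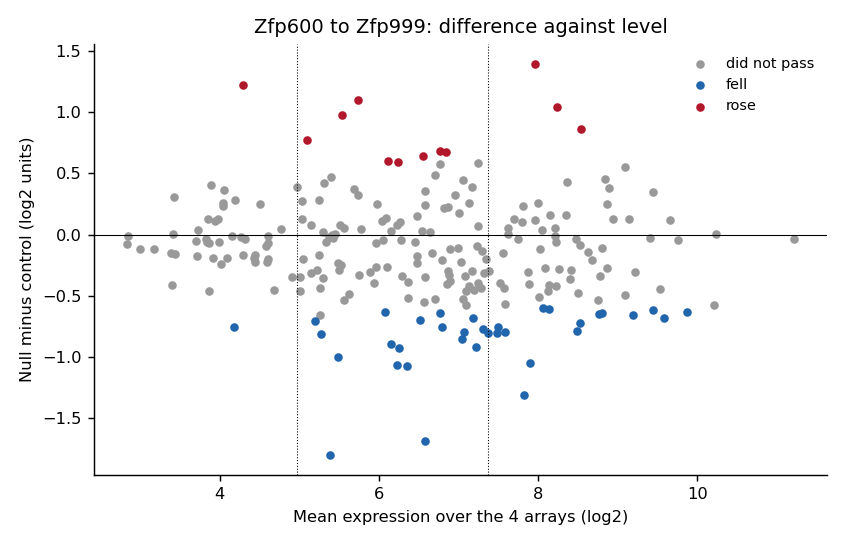
Difference (null minus control, log2 units) of each member probe set against its mean over the 4 arrays (log2), with dotted vertical lines at 4.97 and 7.38, the limits between the 3 parts of all probe sets by level. Left of 4.97 only 1 probe set rose and 1 fell, and in the 2 upper parts 34 fell and 11 rose.

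By number, 3 of 71 probe sets of the 600s rose (4.23%) and 16 fell (22.5%), beside 6.76% and 6.96% of all probe sets, with a median of -0.21. In the 700s 2 of 61 rose and 8 fell (median -0.13), in the 800s 2 of 45 rose and 6 fell (median -0.17), and in the 900s 5 of 63 rose and 5 fell (7.94% each, near the shares of all probe sets, median -0.11). A difference between these blocks of numbers was not tested. At the lower border of the rule, Zfp597 fell on 2 probe sets (-1.08 and -0.59), Zfp598 differed by 0.01 and Zfp599 by -0.50 just outside, while Zfp605 (-0.03), Zfp606 and Zfp608 stood just inside. At the upper end, Zfp991 differed by 0.16 to 0.26, Zfp994 by -0.30 and Zfp995 by 0.15 and 0.24, with 0 calls.

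The position of the members in the genome was taken from a RefSeq table, which matched 132 of the 133 genes on 19 chromosomes. Over the whole group, 98 of the 133 genes differed in the negative direction, with a median of -0.22. Chromosome 7 held 33 member genes, of which 29 differed in the negative direction, with a median of -0.34, beside 52.6% negative among all genes of that chromosome. Chromosome 8 held 14, of which 13 were negative, with a median of -0.47, beside 53.3% negative among all its genes. Chromosome 17 held 20, of which 14 were negative, with a median of -0.25, beside 51.6% negative among all its genes. On chromosome 11, 4 of 9 were negative, with a median of 0.08, beside 57.0% negative among all its genes. A difference between chromosomes was not tested.

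Runs of at least 4 members with no more than 5 protein-coding genes between neighbours numbered 7 and held 41 genes. The run on chromosome 8 from Zfp709 to Zfp961 also holds Zfp882 and Zfp617. All 4 of its genes were negative, 2 fell on their brightest probe set, and the median was -0.67. The second run on that chromosome, Zfp930, Zfp868, Zfp869, Zfp963 and Zfp866, was negative in 5 of 5 genes, with 1 fall and a median of -0.42. A run of 13 genes on chromosome 17, from Zfp677 to Zfp945, was mixed. On brightest probe sets it held the rise of Zfp948, the falls of Zfp760 (-0.79) and Zfp983 (-0.71), and a median of -0.15. Zfp942 (1.22) and Zfp944 (-0.89), also in this run, were called on other probe sets. The other 4 runs held 1 call on brightest probe sets, the fall of Zfp746. Zfp871 (1.04) and Zfp689 (-0.63), also in these runs, were called on probe sets that were not their brightest. Their medians were -0.26 from Zfp871 to Zfp763 on chromosome 17, -0.10 from Zfp771 to Zfp689 on chromosome 7, 0.05 from Zfp786 to Zfp746 on chromosome 6 and 0.12 from Zfp712 to Zfp953 on chromosome 13. Neighbours in such runs can be similar in sequence, and how much their probe sets share signal was not tested.

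The proteins through which KRAB zinc fingers act were given as a separate list of corepressor and heterochromatin genes. Of 26 measured, 0 rose and 2 fell (7.69%), beside 3.58% and 8.06% of all named genes, with a median of -0.12. Atf7ip, a partner of SETDB1 that keeps it in the nucleus, read 8.25 and 8.24 on the null arrays, against 9.25 and 9.27 on the control arrays, and fell by 1.01. Pphln1, a subunit of the HUSH silencing complex, read 8.99 and 8.95 in the null pool, against 9.54 and 9.59 in the control pool. It fell by 0.59, and missed the limits without control array 2 (-0.57) or null array 2 (-0.57) and with another quantile normalization (-0.54). Trim28 itself read 12.21 and 12.14 in the null pool, against 12.45 and 12.49 in the control pool, a difference of -0.30 that was not called. Setdb1 differed by -0.11 and was not called.

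Genes of SCAN domain zinc fingers, another family of C2H2 proteins, were listed beside the members. Of 22 measured, 0 rose and 3 fell (13.6%), beside 3.58% and 8.06% of all named genes, with a median of -0.07. Zscan22 fell by 0.63, Zkscan1 by 0.61 and Zkscan4 by 0.59. Zkscan1 missed the limits without control array 1 (-0.58) or null array 2 (-0.58), and Zkscan4 without control array 1 (-0.55), control array 2 (-0.62) or null array 2 (-0.47).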

How the data were processed

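RNA of 1 Cop1-null and 1 control pool was hybridised as 2 portions each, on 4 arrays. The authors deposited log2 expression values. Per the submitters' processing notes these came from RMA and affy, of versions not given in the sources used here. The method equalises the distributions of the arrays, so a change in total RNA per embryo leaves no trace. Values were used as deposited. The number of arrays limits the precision.

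The 64 control probe sets were left out of the tests. The platform annotation gives 34945 of the 45037 tested probe sets 1 gene and 932 several genes, and the other 9160 are unnamed here. Differences are null minus control, fitted with limma 3.58.1 (lmFit and eBayes, genotype only) in R 4.3.3 over all tested probe sets, with Benjamini-Hochberg adjustment over all of them. A call needed an adjusted p under 0.05 and a fold of at least 1.5. With 2 arrays against 2, an exact two-sided permutation test cannot go below 0.333. Genes were represented by their probe set of highest mean over the 4 arrays, kept the same in every alternative. The fit was tested on simulated data.

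The members, lists and tests were chosen with earlier results of these data known. Named members are the 10 most positive and 10 most negative probe sets, the 5 genes of highest level, genes with opposite calls, the 3 lowest and 3 highest numbers, the 3 numbers below 600 and the listed genes of described function. Named from the other lists are called genes with Trim28 and Setdb1, and up to 4 called SCAN genes. Promoter letters are RefSeq's. Alternatives were a replicate block, leaving out each array, another quantile normalization, poly-A spike centring, a filter on dim probe sets, an intensity trend and the mean over a gene's probe sets.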

Additional observations from a re-analysis of the deposited data

Results flagged for a closer look

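Some control probe sets, which entered no test, had both null arrays above both control arrays. The probe sets of 18S ribosomal RNA differed by 1.27 (3′ end), 1.12 (5′ end) and 1.66 (middle) log2 units, null minus control. A probe set of the B2 repeat differed by 0.94, reading 10.72 and 10.59 in the null pool, against 9.78 and 9.66 in the control pool. The 3 actin probe sets overlapped between the pools (0.03 to 0.08), and the 5′ and middle probe sets of the transferrin receptor were lower in the null pool (-0.23 and -0.16).

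Of the 19 probe sets that list a high-numbered Zfp symbol beside other genes, 1 was past both limits. It is shared by Zfp781 and Gm3055, read 5.45 and 5.38 on the null arrays, against 6.62 and 6.83 on the control arrays, and differed by -1.31. Which of the 2 genes it measured is not known here.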

How the results depend on the processing

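Centring on the poly-A spikes gave 6 rises and 72 falls among the member probe sets, 2 and 52 among the member genes, 7 and 91 among the probe sets of Zfp1 to Zfp599, 6 called corepressor genes, 6 called SCAN genes and a member median of -0.38. It lowers all differences by the same amount, and over all probe sets it gave 4.27% rises and 14.8% falls, beside 6.76% and 6.96% in the deposited values. The mean over a gene's probe sets gave 17 member genes that fell, with no share of all genes under it given here. Another quantile normalization gave 1 called corepressor gene. Under it 8 of the probe sets named or called lost their call. These were Zfp617 (-0.58), Zfp746 (-0.55), Pphln1 (-0.54) and Zkscan1 (-0.55). The others were the second falls of Zfp618 (-0.54) and Zfp644 (-0.56) and both rises of Zfp787 (0.55 and 0.54). Leaving out the dimmest 40% of probe sets gave a member median of -0.21. Leaving out members under the median level, an alternative chosen after seeing the data, gave -0.23. Without 1 array at a time, the member median ranged from -0.16 to -0.11, the called corepressor genes from 1 to 2 and the called SCAN genes from 1 to 4.

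The portion numbers do not pair the arrays (correlation of deviations 0.06 for the same number). With the replicate block there were 12 rises and 35 falls among the member probe sets, 4 and 26 among the genes, 23 and 48 among the probe sets of Zfp1 to Zfp599, 2 corepressor and 3 SCAN calls, and no named probe set changed its call.

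Over the 97 probe sets named or called, 792 of 855 values under alternatives kept their side of the limits, 53 lost a call, 10 gained one and 0 called values reversed. In the fits that left out an array a called probe set could not reverse, since its arrays did not overlap between the pools. The replicate block, the filter on dim probe sets and the intensity trend leave each difference unchanged. Spike centring shifts all differences by the same amount, which is smaller than the 1.5-fold limit. No reversal was possible in these fits either, so the count of 0 says little.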
